A study of Rattus norvegicus with 2 samples.

Results

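The 9 genes described here encode proteins of the contractile apparatus of smooth muscle and of contractile fibroblasts: the actins Acta2 and Actg2, the actin-binding proteins Tagln, Cnn1 and Lmod1, the tropomyosins Tpm1 and Tpm2, the myosin light chain Myl9 and the myosin heavy chain Myh11. They were looked up by symbol among the 25399 genes of the files, and all 9 were found. They were chosen by family, and the family was selected on earlier values of these same libraries, in which Acta2 was lower in the Nuc1 library. The Acta2 values below are therefore a description, and the question asked is whether the other members were lower too.

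Contractile cells move by sliding myosin filaments along actin filaments, which tropomyosins coat and calponins and leiomodins bind. Smooth muscle and pericytes carry most of these proteins, and fibroblasts acquire a part of them, with Acta2 as the best known, when they turn into myofibroblasts in culture, under tension or under TGF-beta. Serum response factor (SRF), with its cofactors of the myocardin family, binds CArG boxes near many of these genes. In the optic nerve, fibroblasts of the sheath and of the vessel walls surround the axons, while astrocytes fill the tissue between them.

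Single cells were sequenced in 2 libraries, 1 per genotype, both labelled as optic nerve at postnatal day 7. WT stands for Sprague Dawley rats without the insertion, and Nuc1 for rats with a spontaneous insertion in Cryba1, the gene of βA3/A1-crystallin. The series is titled a mixed cell culture and the study's methods describe mixed primary cultures of glia, while the series text speaks of harvested and digested nerve, and the number of animals behind each library is not given in the sources used here. Whether the cells were cultured could not be settled from the files, and contractile genes are known to shift in culture.

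The WT library held 34517542 unique molecular identifiers (UMIs, 1 per captured transcript) in 2107 barcodes and the Nuc1 library 35794685 in 1929, with 2 barcodes in common. After filtering, 1961 WT and 1780 Nuc1 cells remained, with medians of 14050 and 16567.5 UMIs. Cryba1 itself gave 0 UMIs in both libraries, so the genotype could not be checked by its level. The Y-linked gene Eif2s3y gave 896 UMIs in the Nuc1 cells and 3 in the WT cells. Y-linked transcripts thus went with the genotype, and the effects of sex and of genotype cannot be told apart. In Nuc1, 374 of 1780 cells had an Eif2s3y UMI, and whether that library held a single sex or both could not be settled. With 1 library per genotype no difference has a replicate check, no p-value was computed, and every interval given covers counting error only.

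Clustering without the 9 genes gave 11 groups. There were 6 clusters rich in collagen transcripts (1743 WT and 1263 Nuc1 cells; over 5000 CPM of 8 fibroblast markers together, a limit chosen after seeing the data, where CPM is the UMIs of a gene or list per 1000000 UMIs of the same cells), called after their leading genes: Ccn3/Rspo3 (676 and 392 cells), Penk/Lum (528 and 200), Cldn11/Thbd (265 and 189), Inmt/Cyp26b1 (53 and 367), and the dividing Top2a/Ube2c (146 and 78) and Cdkn3/Kif20a (75 and 37). The others were astrocyte-like (106 and 344 cells, led by Gfap, Hspb1, Fabp7 and Aqp4), motile cilia-like (15 and 108), oligodendrocyte lineage-like (60 and 10), macrophage-like (15 and 24) and a Ttr/Gldn cluster (22 and 31). No group had the profile of pericytes or smooth muscle cells. Over all kept cells Kcnj8 gave 1 and 5 UMIs in WT and Nuc1, Abcc9 1 and 9, Notch3 7 and 3, Higd1b 3 and 1, Des 8 and 27 and Myocd, the smooth muscle cofactor of SRF, 12 and 6. Rgs5, a pericyte gene, reached at most 8.61 CPM in any group, while Pdgfrb, which fibroblasts carry too, reached 298 in the Nuc1 cells of the Inmt/Cyp26b1 cluster.

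Acta2 encodes smooth muscle actin α and Actg2 smooth muscle actin γ. Their proteins are near copies, and how reads from any parts shared by the transcripts were counted was not checked. The windows at the annotated starts of both are shown because these 2 genes had the largest gaps between the libraries in the pooled collagen-rich cells. Each is the RefSeq window of build GRCr8 from 250 bases before to 50 bases after the start of the gene, on the minus strand. Acta2 lies at chr1:241172454-241172753 and Actg2 at chr4:117593990-117594289, and capitals mark matches to CCNNNNNNGG with at least 5 of the 6 inner bases A or T, a relaxed form of the CArG box that reads the same on both strands.
Acta2: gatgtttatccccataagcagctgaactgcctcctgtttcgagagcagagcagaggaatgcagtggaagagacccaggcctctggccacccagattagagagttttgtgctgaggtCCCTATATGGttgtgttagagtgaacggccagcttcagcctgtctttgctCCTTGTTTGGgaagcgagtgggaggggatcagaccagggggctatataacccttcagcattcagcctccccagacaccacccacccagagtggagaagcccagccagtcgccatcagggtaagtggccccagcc
Actg2: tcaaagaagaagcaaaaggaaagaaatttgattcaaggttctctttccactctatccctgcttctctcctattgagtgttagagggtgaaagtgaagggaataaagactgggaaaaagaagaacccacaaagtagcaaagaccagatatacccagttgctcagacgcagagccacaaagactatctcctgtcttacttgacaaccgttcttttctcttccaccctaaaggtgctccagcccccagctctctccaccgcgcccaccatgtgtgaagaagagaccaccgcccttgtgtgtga
The Acta2 window held 2 such matches, CCCTATATGG, whose first base lies 134 bases before the start, and CCTTGTTTGG at 84 bases. The Actg2 window held none, nor did those of Tpm1, Tpm2 and Cnn1, the other members with an entry (5 of 9 members). The last bases of the Actg2 window, from atgtgtgaagaag on, read as a start codon and coding sequence, so this window may not cover the promoter. Its lack of a match therefore says nothing about the Actg2 promoter, and the 2 windows are not a contrast of promoters. Of all 33469 windows of this length, 9.42% held a relaxed match and 1.64% a strict CArG box. The strict form was in none of the 5, which says only that its letters are not in these windows.

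Acta2 was lower in the Nuc1 library in all 6 collagen-rich clusters. It was at 303 CPM (95% Poisson interval 291 to 314) in WT and 72.9 (65 to 81.5) in Nuc1 cells of the Penk/Lum cluster. In the dividing Top2a/Ube2c cells it was at 491 and 140.0, and in the dividing Cdkn3/Kif20a cells at 285 and 71.7. The Inmt/Cyp26b1 cells had 174 and 37.5. In each of these 4 clusters the interval of the Nuc1 library lay below that of the WT library. The other 2 clusters carried little of it: 8.84 and 2.61 CPM in Ccn3/Rspo3 cells (81 and 16 UMIs) and 11.3 and 2.12 in Cldn11/Thbd cells (53 and 7 UMIs). The log2 ratio of Nuc1 over WT ran from -2.35 (-3.80 to -1.27) in Cldn11/Thbd to -1.73 (-2.63 to -0.97) in Ccn3/Rspo3 cells. This range was narrow beside the difference of level between the clusters, but both its ends rest on the clusters with the fewest UMIs and have wide intervals.

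Actg2 was high in the same collagen-rich clusters as Acta2 with 1 exception, Inmt/Cyp26b1. It was 1 of the 10 leading genes of the Penk/Lum and Cdkn3/Kif20a clusters although it had been left out of the clustering. WT and Nuc1 levels were 1198 and 599 CPM in Cdkn3/Kif20a, 1020.1 and 407 in Top2a/Ube2c and 785 and 259 in Penk/Lum cells. In the Inmt/Cyp26b1 cells, where Acta2 was well detected, Actg2 gave 10 UMIs in WT and 8 in Nuc1, too few to be counted among the ratios. Actg2 was also nearer to absent outside the collagen-rich cells: 99.6% of the Actg2 UMIs of the WT cells and 98.5% of those of the Nuc1 cells lay in collagen-rich cells, against 93.6% and 84.0% for Acta2. Collagen-rich cells held 86.1% of all UMIs of the kept WT cells and 65.4% of those of the kept Nuc1 cells. The log2 ratio of Actg2 was -1.60 (-1.69 to -1.51) in Penk/Lum, -1.32 in Top2a/Ube2c and -0.999 in Cdkn3/Kif20a cells, and reached -2.88 (-3.72 to -2.19) in the Cldn11/Thbd cells on 181 and 17 UMIs.

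**Figure D1:**
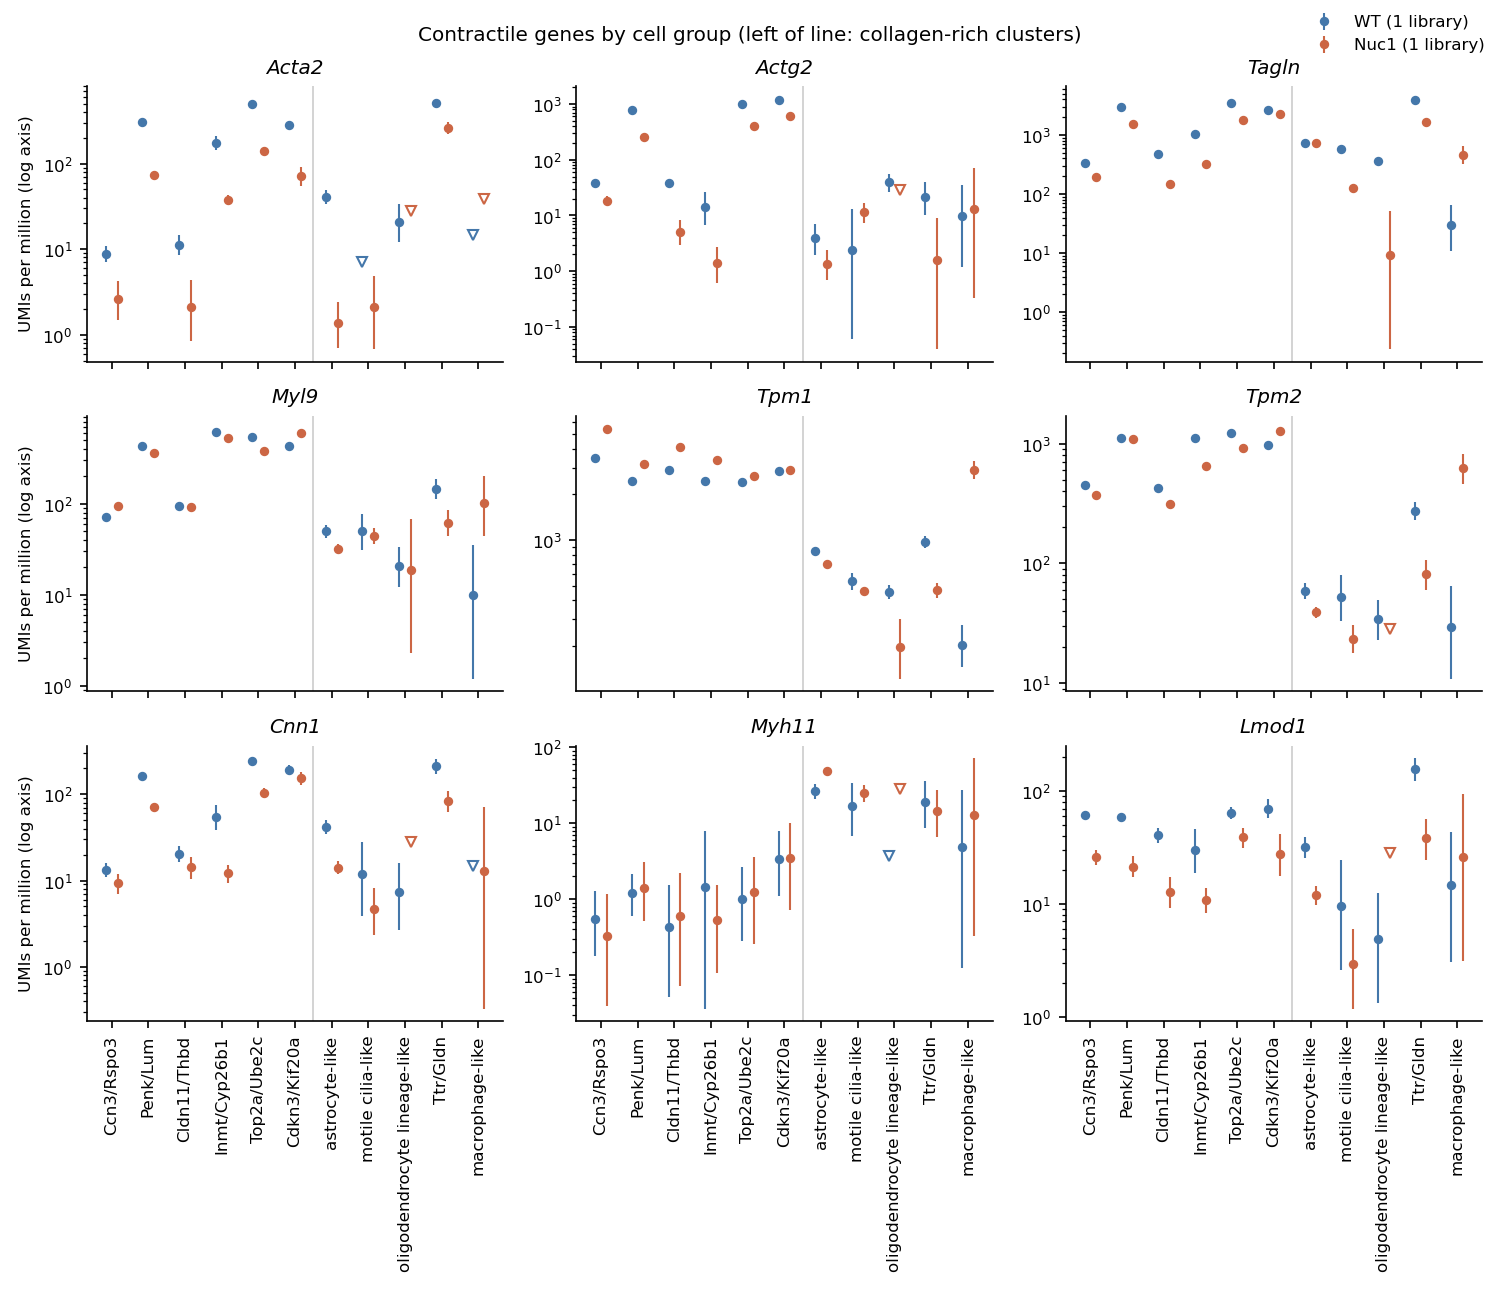
CPM (log axis) of each of the 9 genes in the 11 cell groups, for the WT library (blue) and the Nuc1 library (orange), 1 library each. Bars are 95% Poisson intervals, open triangles stand at the level of 3 UMIs where a group had 0, and the grey line separates the 6 collagen-rich clusters from the rest. Among the collagen-rich clusters of the WT library Acta2, Actg2, Tagln and Cnn1 are highest in the Penk/Lum and both dividing clusters, while Myh11 is highest in the astrocyte-like cells, at 26.5 and 49.2 CPM.

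Tagln (transgelin, an actin-binding protein that appears early when cells take on a smooth muscle character) had, in the WT library, the same order of the 6 clusters as Acta2. In Penk/Lum cells it was at 2933 CPM in WT and 1560.3 in Nuc1, a log2 ratio of -0.91 (-0.95 to -0.87). The gap was wider in the Inmt/Cyp26b1 cells, at 1042 and 321 (-1.70), and in the Cldn11/Thbd cells, at 476 and 148 (-1.69). It was slight in the Cdkn3/Kif20a cells, at 2602 and 2302 (-0.18). Tagln was therefore lower in Nuc1 in all 6 clusters, but past 2-fold in 2 of them.

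Cnn1 (calponin, which binds actin and restrains myosin) and Lmod1 (leiomodin, which starts new actin filaments) were also lower in Nuc1 in all 6 clusters. Cnn1 was at 246 and 104 CPM in Top2a/Ube2c cells, 164 and 70.3 in Penk/Lum cells and 54.5 and 12.1 in Inmt/Cyp26b1 cells, each at least 2-fold lower. In the other 3 clusters its log2 ratio lay between -0.52 and -0.34. Lmod1 varied less from cluster to cluster than Acta2, Actg2, Tagln or Cnn1. Its WT levels ran from 30.1 to 70 CPM over the 6 clusters and its Nuc1 levels from 10.9 to 38.8. Its log2 ratio was -1.24 in Ccn3/Rspo3 cells (561 and 159 UMIs), -1.44 in Penk/Lum cells (536 and 91 UMIs) and -0.73 in Top2a/Ube2c cells, the 1 cluster in which it was not 2-fold lower. Ccn3/Rspo3 cells, with little Acta2, thus showed the Lmod1 gap as well.

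The tropomyosins and Myl9 did not follow. Tpm1 was the member with the most UMIs, detected in nearly every collagen-rich cell, and it was higher in Nuc1: 3474 and 5394 CPM in Ccn3/Rspo3 cells (log2 ratio 0.63), 2911 and 4114 in Cldn11/Thbd cells (0.50) and 2465 and 3169.7 in Penk/Lum cells (0.36). Its interval excluded 0 in 5 of the 6 clusters, the exception being Cdkn3/Kif20a (0.01, -0.06 to 0.09). Tpm1 is spliced into forms for muscle and for all cells, which sums of UMIs per gene do not separate. Tpm2 was at 1112 and 1089 CPM in Penk/Lum cells (-0.03, -0.08 to 0.02), its interval lay below 0 in 4 clusters, with the lowest ratio in Inmt/Cyp26b1 (-0.79), and it was higher in Cdkn3/Kif20a (0.38).

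Myl9, the regulatory light chain of smooth muscle and non-muscle myosin, went either way. It was higher in Nuc1 in Ccn3/Rspo3 (0.39, 0.23 to 0.55) and Cdkn3/Kif20a cells (0.47), lower in Top2a/Ube2c (-0.51), Penk/Lum (-0.27) and Inmt/Cyp26b1 cells (-0.20), and near equal in Cldn11/Thbd cells (-0.03, -0.25 to 0.18). No cluster had a 2-fold difference of Myl9, Tpm1 or Tpm2. Myh11, the heavy chain of smooth muscle myosin, gave 28 UMIs over 1743 WT and 19 over 1263 Nuc1 collagen-rich cells, or 0.962 and 0.838 CPM, and fewer than 20 in every single cluster. A difference of Myh11 between the libraries was not detectable in these cells at this depth (-0.19, -1.12 to 0.69).

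**Figure D2:**
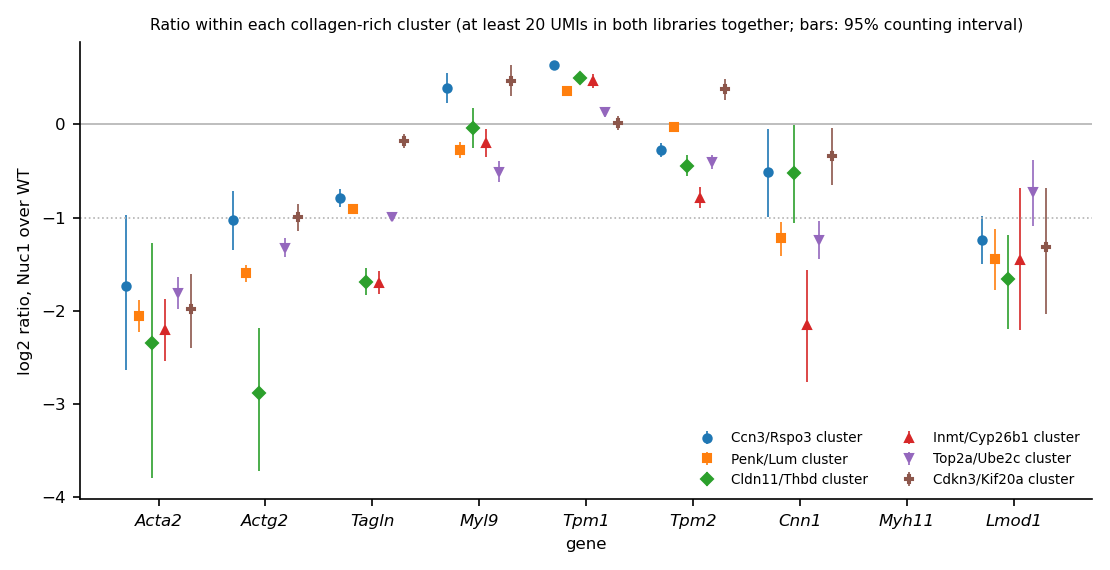
Log2 ratio of Nuc1 over WT (y axis) of each gene (x axis) in each of the 6 collagen-rich clusters, for genes with at least 20 UMIs in the cluster. Bars are 95% counting intervals, the solid line marks equal levels and the dotted line a 2-fold lower level in Nuc1. All 6 points of Acta2 lie below the dotted line, those of Tpm1 at or above 0.

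Counted at a log2 ratio of -1 or lower, 4 members were lower in Nuc1 in the Penk/Lum cells (Acta2, Actg2, Cnn1 and Lmod1), where 3.63% of all genes with at least 100 UMIs were (5.73% at the members' floor of 20 UMIs). There were 4 in the Cldn11/Thbd cells (Acta2, Actg2, Tagln and Lmod1; 3.49% of genes) and 4 in the Inmt/Cyp26b1 cells (Acta2, Tagln, Cnn1 and Lmod1; 2.23% of genes). There were 3 in the Ccn3/Rspo3 cells (Acta2, Actg2 and Lmod1; 4.17% of genes), 3 in the Top2a/Ube2c cells (Acta2, Actg2 and Cnn1; 2.5% of genes) and 2 in the Cdkn3/Kif20a cells (Acta2 and Lmod1; 4.21% of genes). Only Acta2 was in all 6 counts, and it is the gene that led to the choice of the family. Among the 9, 8 had at least 20 UMIs in each of these clusters but Inmt/Cyp26b1, where Actg2 fell short besides Myh11. None was at least 2-fold higher. Just inside the limit stood Actg2 in Ccn3/Rspo3 cells (-1.02), and just outside Actg2 in Cdkn3/Kif20a cells (-0.999) and Tagln in Top2a/Ube2c cells (-0.99).

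The make-up of the collagen-rich cells differed between the libraries and moved the pooled values. Penk/Lum cells, rich in these genes, were 26.9% of all kept WT and 11.2% of all kept Nuc1 cells, and Inmt/Cyp26b1 cells 2.7% and 20.6%. Summed over all collagen-rich cells, 5 of the 9 were at least 2-fold lower in Nuc1, where 3.79% of genes were: Acta2 at 184 and 41.8 CPM (-2.14, -2.24 to -2.04), Actg2 at 463 and 121 (-1.94), Cnn1 at 103 and 37.7 (-1.45), Lmod1 at 57.1 and 20.8 (-1.45) and Tagln at 1735 and 723 (-1.26). With the 6 clusters weighted equally in both libraries the count was 3 (Acta2, Actg2 and Lmod1), where 3.5% of genes were. Cnn1 then stood at -0.93 (-1.07 to -0.79) and Tagln at -0.79 (-0.83 to -0.76), short of 2-fold. Acta2 changed little under equal weights (-1.96), and Actg2 more (-1.26).

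Of the members that did not reach 2-fold, Tpm2 stood at -0.20, Myh11 at -0.08 and Tpm1 at 0.38 under equal weights. Myl9 changed its sign with the weighting, from 0.10 (0.06 to 0.15) pooled to -0.09 (-0.15 to -0.02). The median log2 ratio of the 9 under equal weights was -0.79, beside 0.01 over the 10340 genes with at least 100 UMIs. Without Acta2, whose low value chose the family, the median of the other 8 was -0.50, and 2 of them were at least 2-fold lower under equal weights and 4 pooled. Both actins and the 3 actin-binding proteins were thus lower in Nuc1 in each cluster where they had 20 UMIs, though Cnn1 and Tagln by less than 2-fold under equal weights, while Myl9 and Tpm2 went either way and Tpm1 was at or above 0.

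**Figure D3:**
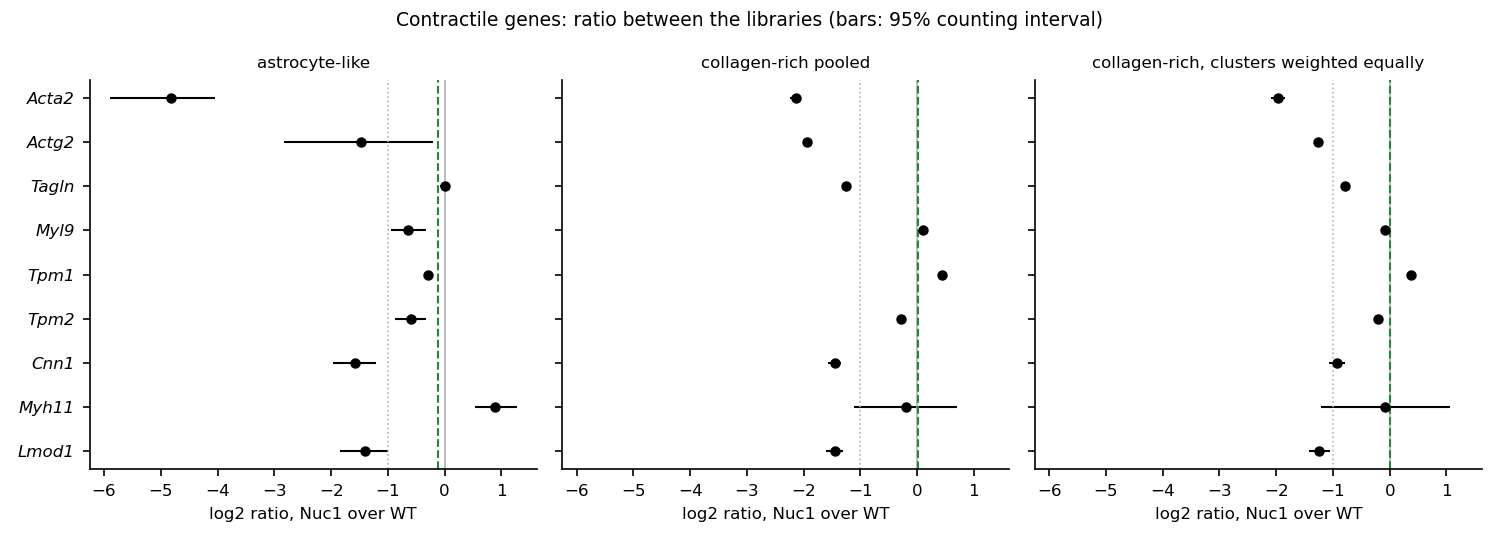
Log2 ratio of Nuc1 over WT (x axis) of the 9 genes in astrocyte-like cells, in all collagen-rich cells pooled and in collagen-rich cells with their 6 clusters weighted equally. Bars are 95% counting intervals, the dotted line marks a 2-fold lower level and the green dashed line the median of all genes with at least 100 UMIs. Acta2 is the lowest in each panel, at -4.82, -2.14 and -1.96.

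In astrocyte-like cells the order of the members was another. Tagln and Tpm1 were well detected: Tagln was at 727 CPM in WT and 727 in Nuc1, with a log2 ratio of 0.00 to 2 decimals (interval -0.07 to 0.07), and Tpm1 at 844 and 691 (-0.29, -0.36 to -0.22). Myl9 (49.8 and 32) and Tpm2 (59.1 and 39) were scarce and lower in Nuc1, at -0.64 and -0.60. Tagln thus differed between the libraries by less than the counting error here, and stood at 0.24 (0.15 to 0.33) among cells scored as G1, while it was lower in Nuc1 in each collagen-rich cluster.

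Of the 9 members, 4 were at least 2-fold lower in Nuc1 astrocyte-like cells, where 3.92% of genes were (7.01% at the members' floor of 20 UMIs). Without Acta2, whose low value chose the family, 3 of the other 8 were, with a median log2 ratio of -0.62. Acta2 gave 114 UMIs in 17 of 106 WT cells (40.8 CPM) and 12 UMIs in 3 of 344 Nuc1 cells (1.37), a log2 ratio of -4.82 (-5.90 to -4.04). Cnn1 gave 118 and 124 UMIs (42.3 and 14.1 CPM, -1.58), Lmod1 89 and 105 (31.9 and 12, -1.41) and Actg2 11 and 12 (3.94 and 1.37, -1.47). The Acta2 and Cnn1 values rested on few cells, whereas Lmod1 was spread over more. At least 50% of the Acta2 UMIs of the WT cells came from 2 cells and at least 50% of the Cnn1 UMIs from 3, while 46 WT and 73 Nuc1 cells carried Lmod1.

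Thinned to 5000 UMIs, 6.6% of 106 WT astrocyte-like cells had an Acta2 UMI (95% binomial interval 2.7 to 13.1), and in Nuc1 0.588% of 340 (0.0713 to 2.11). Unthinned, the shares were 16.0% and 0.872%, at median depths of 25874 and 24072 UMIs. In the macrophage-like cells, which should lack the gene, 0 of 15 WT and 0 of 24 Nuc1 cells had a UMI, at median depths of 13440 and 1807.5, which allows a share of cells with a UMI of up to 20% and 12.5%. Fibroblast RNA was present in some astrocyte-like cells: 11 of the 12 Nuc1 UMIs and 7 of the 114 WT UMIs of Acta2 came from cells with over 300 CPM of Col1a1, Col3a1, Dcn and Lum together. Without those cells 107 UMIs in 89 WT cells stood against 1 UMI in 283 Nuc1 cells. The same cells held 267 of the 343 Nuc1 UMIs of Tpm2, and without them Tpm2 was at 49.9 and 11.2 CPM (-2.15, -2.60 to -1.73), Myl9 at 55.2 and 21.4 (-1.36, -1.72 to -1.01) and Tpm1 at 796 and 498 (-0.68, -0.76 to -0.59). Tagln stayed near equal (-0.02, -0.10 to 0.06). Acta2, Cnn1, Lmod1, Myl9 and Tpm2 were then at least 2-fold lower, 5 of the 8 members with 20 UMIs, where 3.89% of genes were. Dividing cells were more frequent in the WT astrocyte-like cells, with a summed level of 8 cell division genes of 313 and 57.4 CPM in WT and Nuc1. Cells scored as G1, 82 of the 106 WT cells, held 46 of the 114 WT UMIs of Acta2 (21.0 CPM). In Nuc1 they held 11 UMIs (1.38 CPM), a log2 ratio of -3.84. Among those G1 cells 3 members were at least 2-fold lower, Acta2 among them (3.14% of genes were). With cells holding a UMI of Top2a, Mki67 or Cdk1 left out, an alternative added after seeing the data, 5 members were, Acta2 among them (3.09% of genes). Acta2 then gave 41 UMIs in WT and 2 in Nuc1 (25.1 and 0.282 CPM).

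Myh11 went the other way. It gave 74 UMIs in 36 WT and 432 UMIs in 162 Nuc1 astrocyte-like cells, or 26.5 and 49.2 CPM, 1.85-fold higher in Nuc1 (0.89, 0.53 to 1.27). No single cell gave more than 11 of these UMIs. Of all Myh11 UMIs, 62.2% in WT and 83.1% in Nuc1 lay in astrocyte-like cells, which held 8.25% and 25.4% of the UMIs of all genes. Motile cilia-like cells came next, at 16.7 and 24.8 CPM with overlapping intervals. The heavy chain of smooth muscle myosin thus lay mostly in other groups than Acta2, Actg2 and Cnn1.

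The Ttr/Gldn cluster, with 22 WT and 31 Nuc1 cells, had the highest Tagln and Lmod1 levels of all groups in the WT library, and an Acta2 level whose interval overlapped that of the Top2a/Ube2c cells. Acta2 was at 507 and 260.4 CPM, but 1 of the 22 WT cells gave 122 of its 238 UMIs. Tagln was at 3959.6 and 1669 (-1.25) and Lmod1 at 156 and 38.1 (-2.0). Here 6 of the 7 members with at least 20 UMIs were at least 2-fold lower in Nuc1 (5.21% of genes were), among them Tpm1 (-1.05), Tpm2 (-1.75) and Myl9 (-1.24), which were not in the collagen-rich clusters. Acta2 stood just short of 2-fold at -0.96 (-1.26 to -0.67), and Actg2 and Myh11 had too few UMIs.

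Other groups held few cells of 1 library. In the motile cilia-like cells Acta2 gave 0 UMIs in 15 WT and 5 UMIs in 108 Nuc1 cells, and Tagln 579 and 128 CPM, of which 1 of the 15 WT cells gave 165 of 243 UMIs. In the oligodendrocyte lineage-like cells 1 WT cell gave 204 of the 295 Tagln UMIs, beside 1 UMI in the 10 Nuc1 cells. Macrophage-like cells had 0 Acta2 UMIs in both libraries. Tpm1 there was at 202 CPM in WT and 2892 in Nuc1, and Tagln and Tpm2 were higher in Nuc1 too, but only 3 of the 24 Nuc1 cells reached 5000 UMIs, so these values describe shallow cells.

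Within the Penk/Lum cluster both the share of cells with a UMI and the mean UMIs of those cells were lower in Nuc1 for Acta2, Actg2 and Tagln. At a fixed depth both values fall when the level of a gene falls, so they do not separate how many cells carried it from how much each carried. At 5000 UMIs per cell, Acta2 was found in 38.7% of 522 WT cells (34.5 to 43) and 13.1% of 198 Nuc1 cells (8.76 to 18.6). The 202 WT and 26 Nuc1 cells with it held 3.56 and 2.58 UMIs on average. Actg2 was found in 52.3% and 24.2%, with 6.01 and 4.27 UMIs per cell with it. Tagln was found in 91.6% and 76.8%, with 14.5 and 8.59. Tpm2 showed no such gap, with 95.4% and 93.4% of cells and 5.44 and 5.43 UMIs.

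Counting Acta2, Actg2, Tagln and Cnn1 together, a set picked after their values were seen, 19.3% of the WT Penk/Lum cells had a UMI of all 4 (16.0 to 23.0) and 5.05% of the Nuc1 cells (2.45 to 9.09). None of the 4 was seen in 6.70% of the WT (4.71 to 9.20) and 20.7% of the Nuc1 cells (15.3 to 27.0). The set includes Acta2 and follows the shares of the single genes, so these values are a description only. Across the 522 WT cells, as a description of cells that share 1 library, the Spearman correlation with Tagln was 0.63 for Myl9, 0.62 for Actg2, 0.61 for Acta2, 0.56 for Tpm2 and 0.49 for Cnn1, against 0.22 for Tpm1 and 0.13 for the sparse Lmod1. Across the 198 Nuc1 cells it was 0.54 for Myl9, 0.47 for Actg2, 0.46 for Tpm2, 0.41 for Acta2, 0.39 for Cnn1 and 0.00 for Tpm1. Actb, a gene of all cells, correlated with Tagln at 0.54 in WT and 0.56 in Nuc1, so the correlation was not particular to the contractile genes.

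**Figure D4:**
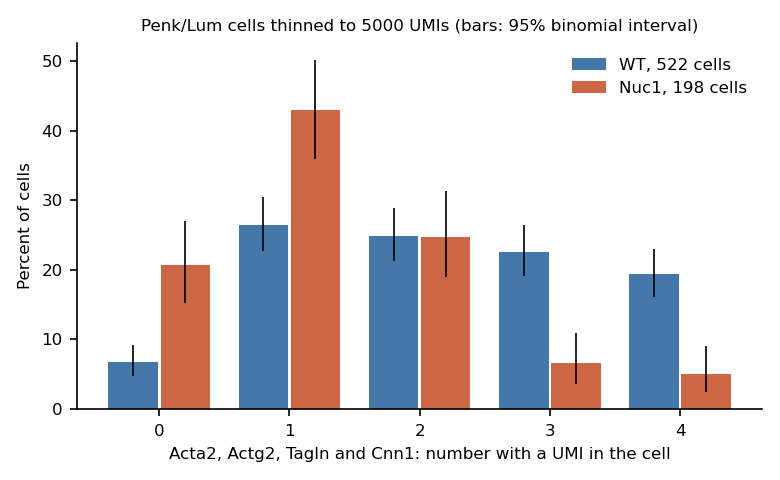
Percent of Penk/Lum cells (y axis) by how many of Acta2, Actg2, Tagln and Cnn1 had a UMI (x axis), after thinning each cell to 5000 UMIs, for 522 WT cells (blue) and 198 Nuc1 cells (orange). Bars are 95% binomial intervals, and the share of cells with all 4 is 19.3% in WT and 5.05% in Nuc1.

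None of the other listed genes of smooth muscle contraction with at least 20 UMIs was 2-fold lower in the collagen-rich cells. Of 25 listed, 24 had at least 20 UMIs there. With clusters weighted equally 0 were at least 2-fold lower and 1 higher (Des, on 8 and 27 UMIs, chosen after its values were seen), against 0 and 4 pooled. Of all genes with at least 20 UMIs, 4.85% were at least 2-fold lower under equal weights and 4.98% pooled, so 0 of 24 is near that share. The share at least 2-fold higher is not given. The median log2 ratio of the list was 0.18 under equal weights beside 0.01 for all genes. The extremes of the list with at least 100 UMIs were Smtn, smoothelin (-0.46), and Pln, phospholamban (0.89). The actin and myosin genes of all cells moved within narrow bounds, from Myl6 (-0.25) to Actb (0.42). Of these, 0 of 13 were 2-fold lower, also near the share of all genes. Actb, the main actin of non-muscle cells, was at 2907 and 3896 CPM. In astrocyte-like cells Actb went the other way, at 2701 and 2111 CPM (-0.36, -0.39 to -0.32).

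Genes upstream gave a mixed picture. Of 13 SRF, myocardin-related and associated regulators with at least 20 UMIs, 2 were at least 2-fold lower under equal weights, Tead1 (-1.66) and Klf4 (-1.44), the latter known as a repressor of contractile genes. Of all genes with at least 20 UMIs there, 4.85% were at least 2-fold lower. Srf itself, chosen after its values were seen, was at 49.9 and 29.1 CPM (-0.78, -0.95 to -0.61). Fhl2, which is also in the list of other smooth muscle genes, was the highest of the list of regulators (0.31). Among 10 TGF-beta ligands, receptors and binding proteins, Thbs1 (-1.47) was 2-fold lower and Ltbp1 (1.41) 2-fold higher, with a median of -0.01.

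Genes known to respond to TGF-beta in fibroblasts were lower in part. This list shares Col1a1, Col1a2 and Col3a1 with the fibroblast markers, so the lists are not separate observations. Ltbp2 is also in the list of TGF-beta ligands and receptors. Of 15, 6 were at least 2-fold lower under equal weights and 4 pooled, with medians of -0.79 and -0.85. Of all genes with at least 20 UMIs, 4.85% and 4.98% were. Bgn, the proteoglycan biglycan, had the highest ratio of those with at least 100 UMIs (0.15). Postn, periostin, chosen after its values were seen, was at 168 and 46.2 CPM (-1.86). In astrocyte-like cells 9 of 14 genes of this list were at least 2-fold lower, with a median of -1.33, from Ltbp2 (-2.07) to Col3a1 (0.38), beside -0.11 for all genes. Of all genes with at least 20 UMIs in the astrocyte-like cells, 7.01% were at least 2-fold lower. There the other smooth muscle genes were lower as well, with 4 of 20 at least 2-fold lower and a median of -0.63, from Actn1 (-1.68) to Csrp2 (0.99), the actomyosin genes of all cells had a median of -0.34, from Tpm4 (-1.07) to Myl12b (0.54), and the SRF list a median of -0.29, from Klf4 (-1.83) to Smad3 (0.39). The TGF-beta ligands and receptors had 3 of 9 at least 2-fold lower and a median of -0.33 there, from Tgfb3 (-2.56) to Tgfbr3 (0.60).

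**Figure D5:**
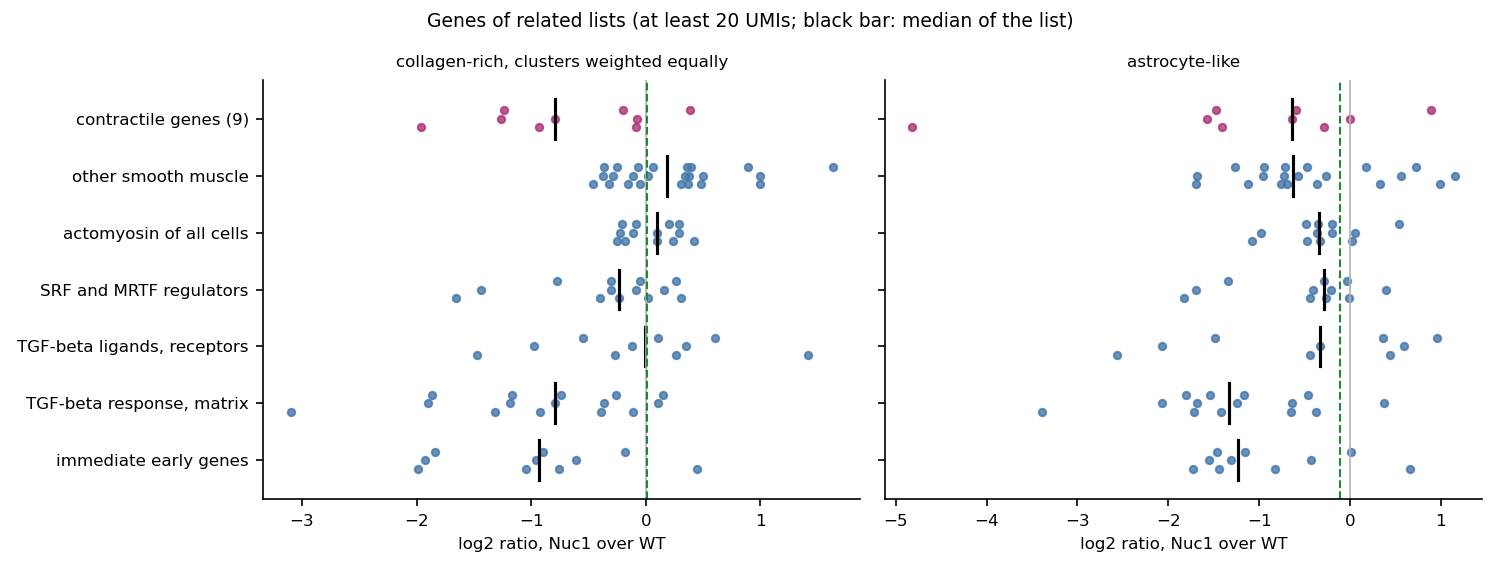
Log2 ratio of Nuc1 over WT (x axis) of each gene with at least 20 UMIs in the 9 contractile genes (purple) and 6 related lists (blue), in collagen-rich cells with clusters weighted equally (left) and in astrocyte-like cells (right). Black bars are list medians and the green dashed line is the median of all genes. In collagen-rich cells the median is -0.79 for the contractile genes (-0.50 without Acta2, which chose them), -0.79 for the TGF-beta response genes and 0.18 for the other smooth muscle genes.

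Another list moved with the contractile genes. Immediate early and stress genes such as Egr1 and Atf3, which respond to serum and to tissue dissociation, were mostly lower in the Nuc1 library: 4 of 10 were at least 2-fold lower under equal weights in collagen-rich cells (median -0.93, from Atf3 at -1.99 to Hspa1b at 0.45) and 6 of 10 in astrocyte-like cells (median -1.23, from Zfp36 at -1.72 to Jund at 0.66). Of all genes with at least 20 UMIs, 4.85% and 7.01% were at least 2-fold lower in these cells. The summed level of the immediate early list ran from 4029 to 7541 CPM over the 6 collagen-rich clusters of the WT library and from 1839 to 4145 in Nuc1. Its part in the contractile values was not tested. Lineage markers differed in the collagen-rich cells too: 4 of 8 fibroblast markers were at least 2-fold lower in Nuc1 under equal weights, among them Dcn (-1.09) and Lum (-1.21), and Fbln1 was higher (1.29). Of 9 astrocyte markers 5 were at least 2-fold higher, with Gfap at 6.31 and 32.7 CPM (genes named after their values were seen). The share of all genes that were at least 2-fold higher is not given, so this count has no background beside it. The summed level of the 9 astrocyte markers differed less than Gfap, at 785 CPM in WT and 871 in Nuc1 under equal weights. The part of these markers was not tested either. The summed level of 10 mural markers ran from 66.9 to 222 in the WT and from 68.6 to 309 in the Nuc1 clusters, carried by Pdgfrb.

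Over the 22 combinations of cell group and library, the genes whose levels were most like those of Acta2 were Fbln5 (Pearson r of log2 levels 0.861), Actn4 (0.814), Htra1 (0.812), Prdx4 (0.796) and Ccn4 (0.787), out of 8018 compared. Among the members Cnn1 was nearest, at 0.925, then Tagln (0.821) and Lmod1 (0.724), while Tpm1 (0.255) and Myh11 (-0.135) were far. Those most like Actg2 were S100a10 (0.919), Serpinb10 (0.901), Tnfaip8l3 (0.878), Bmp3 (0.871) and Lrrc59 (0.847). Actg2 and Acta2 themselves correlated at 0.620, so each had nearer companions than the other. These points share libraries and depths, and the values are descriptions.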

How the data were processed

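Single-cell libraries of rat optic nerve cells, 1 WT and 1 Nuc1, were made with a droplet 3′ kit. The authors deposited raw UMI counts per gene and cell barcode. The submitters' processing notes name Cell Ranger 3.1.0, STAR 2.7 and Seurat 3.1.0 and 3.1.1, and the genome build is not given in the sources used here. No column was left unmapped to a library.

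From the deposited counts, barcodes were kept if 500 genes or more were detected and mitochondrial UMIs did not exceed 20%, and Scrublet calls (scanpy 1.11.5, expected rate 2%) were left out. It called 0.356% of the WT and 0.725% of the Nuc1 barcodes, so doublets can remain. Libraries were integrated in Seurat 5.3.0 (R 4.3.3) with 2000 variable genes, 30 principal components, resolution 0.5 and seed 1, with the 9 contractile genes taken out of the variable genes. Raw counts were summed per group and library and given as CPM (per 1000000 UMIs) with exact Poisson intervals. Ratios have exact conditional 95% intervals, or an approximate Poisson interval where clusters were weighted equally, and shares have Clopper-Pearson intervals. For ratios 0.5 UMIs were added to each sum. Members and listed genes needed 20 UMIs over both libraries to be counted. The share of all genes set beside the counts was taken over genes with 100 UMIs where no other limit is named, and over genes with 20 UMIs it ran from 3.94% to 7.92% in the same comparisons. No such share is given for genes at least 2-fold higher. Shares were taken after thinning cells to 5000 UMIs, leaving out shallower cells. UMIs mark molecules, and intervals cover counting error only. With 1 library per genotype no test was run. The summing and interval code was tested on simulated data.

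The members and the gene lists were chosen with earlier results of these data known. All 9 members are named, with the highest and lowest ratio of each list among genes with at least 100 UMIs, the 5 genes most like Acta2 and Actg2 over groups and libraries, and the leading genes of clusters. Other genes are said to have been chosen after their values were seen. The value of 1 gene that this rule names is not reported here. Windows at annotated gene starts came from RefSeq, build GRCr8, in which Tagln, Myl9, Myh11 and Lmod1 had no entry in the table used. Alternatives changed filters, doublet calls, clustering, cell cycle, scaling (edgeR 4.0.16 TMM factors of the counts), depth, weighting and the cells left out.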

Additional observations from a re-analysis of the deposited data

Results flagged for a closer look

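Tpm1 differed in direction between cell types. As a log2 ratio (Nuc1 over WT) it stood at -0.29 in astrocyte-like cells and at 0.38 in collagen-rich cells with clusters weighted equally, and neither counting interval included 0. With 1 library per genotype the difference between the cell types was not tested.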

How the results depend on the processing

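Acta2 was lower in Nuc1 under every alternative run, and no result reversed. Its log2 ratio in astrocyte-like cells (-4.82) ran from -7.53 to -3.53. It was -3.81 with no doublets left out, -3.53 without cells over 3 median absolute deviations, -3.78 with marker-defined cells in place of clusters, -3.84 in G1 cells, -6.59 without the top cell of each library, -6.59 against Nuc1 cells with no Y-linked UMI and -7.53 without cells rich in fibroblast RNA. In pooled collagen-rich cells (-2.14) it was -1.97 in G1 cells, -2.28 as a mean over cells and -1.94 against Nuc1 cells with no Y-linked UMI. With clusters weighted equally (-1.96) it was -1.75 merged without integration, -2.15 as a mean over cells, -2.14 without the top cell of each library and -1.66 against Nuc1 cells with no Y-linked UMI. The cause of these shifts was not tested. The count of members at least 2-fold lower in pooled collagen-rich cells (5) was 3 in Ccn3/Rspo3 cells alone, 3 in Top2a/Ube2c cells alone, 2 in Cdkn3/Kif20a cells alone and 3 with each cluster weighted equally, alternatives chosen after seeing the data. In astrocyte-like cells (4) it ran from 3 to 6. The counts of 5 and 4 both include Acta2, which chose the family. The median member ratio under equal weights ran from -1.06 to -0.63. Marker-defined cells hold no clusters and gave no value under equal weights. No paired analysis was possible because there is 1 library per genotype and no replicate numbers are shared. Depth limits Myh11 in collagen-rich cells (28 and 19 UMIs) and Actg2 in astrocyte-like cells (11 and 12 UMIs).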

Other observations

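Actins of heart and skeletal muscle were seen at low levels. Actc1, cardiac actin, gave 45 UMIs in WT and 8 in Nuc1 astrocyte-like cells (16.1 and 0.911 CPM) and 0 in the collagen-rich cells of both libraries. Acta1, skeletal actin, gave 104 and 90 UMIs in the collagen-rich cells, and the sign of its log2 ratio depended on the weighting, at 0.15 (-0.27 to 0.57) pooled and -1.78 with clusters weighted equally. Tnnt2, cardiac troponin T, was higher in the Nuc1 collagen-rich cells, with a log2 ratio of 1.32 under equal weights on 391 and 646 UMIs. These actins are near copies of Acta2 and Actg2.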
